A study of Mus musculus with 24 samples.

Results

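The let-7 family was followed through the adult life of the mouse mammary gland. It was taken as 9 mature miRNAs, chosen by name: mmu-let-7a-5p, mmu-let-7b-5p, mmu-let-7c-5p, mmu-let-7d-5p, mmu-let-7e-5p, mmu-let-7f-5p, mmu-let-7g-5p, mmu-let-7i-5p and mmu-miR-98-5p. These are 9 of the 1009 miRNAs listed. Small RNA came from ground gland pairs 4 and 5 of 24 female C57BL/6 mice, an inbred strain for which no transgene or treatment is named, and every library came from a separate mouse. Each of 4 stages had 6 mice. The first group, W10, were adults 10 weeks old, and the P18 group were pregnant, at day 18. The Lac7 group had been lactating for 7 days, and in the Inv3 group the gland had been regressing after lactation, in involution, for 3 days. The ages of the mice at the last 3 stages are not given in the sources used here. The glands were measured whole, with epithelium, fat, vessels and blood cells together. Fewer cells of a type and less miRNA per cell therefore cannot be told apart in any value that follows.

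miRNAs bind Argonaute proteins and guide them to messenger RNAs, mostly through the bases near the 5′ end called the seed. The let-7 miRNAs share this seed, so they are thought to recognise overlapping sets of targets, and they are known as markers of differentiated tissue that repress growth genes such as Hmga2, Lin28 and Ras genes. LIN28 proteins in turn block the processing of let-7 precursors, and the family rises as many tissues leave the embryonic state.

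The mature sequences are shown to make plain how little separates the members (RefSeq, mouse assembly GRCm38.p6, 5′ to 3′, with the seed, bases 2 to 8, in capitals).
mmu-let-7a-5p: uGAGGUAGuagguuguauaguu
mmu-let-7b-5p: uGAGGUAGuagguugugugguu
mmu-let-7c-5p: uGAGGUAGuagguuguaugguu
mmu-let-7d-5p: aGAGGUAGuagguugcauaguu
mmu-let-7e-5p: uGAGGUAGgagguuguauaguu
mmu-let-7f-5p: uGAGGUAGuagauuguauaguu
mmu-let-7g-5p: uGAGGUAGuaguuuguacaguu
mmu-let-7i-5p: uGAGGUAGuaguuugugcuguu
mmu-miR-98-5p: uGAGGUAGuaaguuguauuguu

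All 9 are 22 bases long and share the seed GAGGUAG. Of the 36 pairs of members, 4 differ at 1 base and the most distant differ at 6. Counted from 1 at the 5′ end of let-7a-5p, let-7c-5p differs by A19G, let-7e-5p by U9G and let-7f-5p by G12A. The differences are A17G and A19G in let-7b-5p, U1A and U16C in let-7d-5p, G12U and U18C in let-7g-5p, and G11A and A19U in miR-98-5p. let-7i-5p is the farthest from let-7a-5p, by G12U, A17G, U18C and A19U. The fourth pair at 1 base is let-7b-5p and let-7c-5p. How reads were divided between such neighbours was not tested, so the split between let-7a-5p, let-7b-5p, let-7c-5p, let-7e-5p and let-7f-5p is less certain than their sum. Outside the family, the table held the same seed in mmu-let-7k, at a mean of 3.08 to 4.66 RPM per stage, and in mmu-miR-1961, which was at 0 except for a mean of 0.222 RPM at Lac7 (854 of the 1009 miRNAs had a RefSeq sequence to search). RPM, the unit of the deposited table, is reads per 1000000 reads on the listed miRNAs of a library.

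The members arise from 12 hairpin genes on 7 chromosomes (GRCm38). Mirlet7a-1 (chr13:48538179-48538272), Mirlet7f-1 (chr13:48537829-48537917) and Mirlet7d (chr13:48536012-48536114) lie within an exon of the long non-coding RNA 6720427I07Rik. Mirlet7c-2 (chr15:85706603-85706697) and Mirlet7b (chr15:85707319-85707403) lie within an exon of Lncppara, and Mirlet7f-2 (chrX:151912346-151912428) and Mir98 (chrX:151913214-151913321) within an intron of Huwe1. Mirlet7a-2 (chr9:41536716-41536811), Mirlet7c-1 (chr16:77599657-77599750), Mirlet7e (chr17:17830352-17830444) and Mirlet7g (chr9:106178840-106178927) are intronic, in 3110039I08Rik, Mir99ahg, Spaca6 and Wdr82. Mirlet7i (chr10:122985640-122985724) lies in an exon of D630033A02Rik. let-7a-5p, let-7c-5p and let-7f-5p each have 2 such genes, so their values sum over loci.

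The libraries held 660346 to 1165321 reads on miRNAs, fewest at Lac7 (660346 to 751890), and a count of 0 allows up to 2.57 to 4.54 RPM (3 reads, counting error only). RPM is a share of a fixed total, so a rise in some miRNAs lowers the others. The median log2 fold change of the 544 miRNAs tested was −0.32 for P18 against W10, −0.34 for Lac7 against P18, 0.28 for Inv3 against Lac7, −0.66 for Lac7 against W10 and −0.41 for Inv3 against W10. Scaling by DESeq2 size factors, which assume that most miRNAs do not change, moved these medians to −0.12, −0.14, 0.18, −0.31 and −0.10. Directions are therefore also given on that scale and relative to the median of all miRNAs tested. For Lac7 against W10, 132 of the 544 were called higher and 206 lower with size factors. Most were thus called changed there, so the assumption of that scale is in doubt too. Comparisons that name the same stage share its libraries, so the 5 comparisons are not independent of each other.

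The family took a large share of all miRNA reads, and that share was highest in late pregnancy and lactation. It was 15.3% at the lowest, 18.0% at the median and 22.5% at the highest among the W10 mice. The P18 mice had 23.4%, 26.6% and 30.7%, the Lac7 mice 22.3%, 23.8% and 29.1%, and the Inv3 mice 14.9%, 18.4% and 19.4%. Every P18 mouse lay above every W10 and Inv3 mouse, and the P18 and Lac7 mice overlapped, as did the W10 and Inv3 mice. The lowest Lac7 mouse (22.28%) was below the highest W10 mouse (22.50%), so these stages overlapped too, while Lac7 lay wholly above Inv3. The means were 18.3% ± 2.47, 26.8% ± 2.35, 24.6% ± 2.59 and 17.6% ± 1.78 (SD, n = 6 each). On the log2 scale the summed level rose by 0.56 from W10 to P18 and fell by 0.48 from Lac7 to Inv3, a description with no test. With size factors these differences were 0.81 and −0.66, and the difference of Lac7 against P18 went from −0.13 to 0.18. For comparison, the 5 members of the miR-30 family took a mean of 1.96% of the reads in the W10 mice and 1.10% in the P18 mice, and then 1.79% (Lac7) and 1.40% (Inv3).

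**Figure D1:**
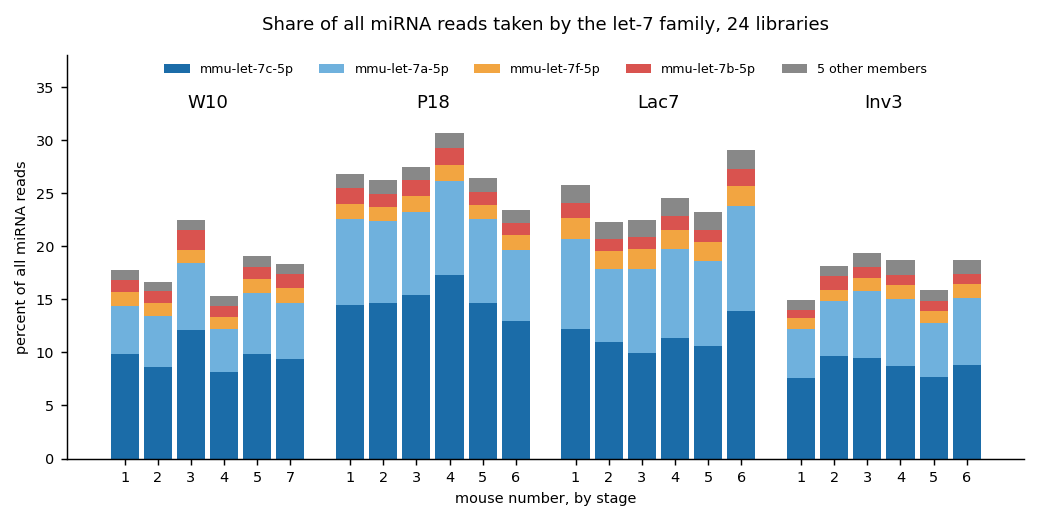
Percent of all miRNA reads (y axis) taken by the let-7 family in each of the 24 libraries (x axis, mouse number within a stage), with bars stacked from let-7c-5p, let-7a-5p, let-7f-5p, let-7b-5p and the 5 other members. The P18 bars reach 23.4% to 30.7% and the W10 bars 15.3% to 22.5%, and the lower 2 blocks make up 79.4% to 85.2% of every bar.

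let-7c-5p and let-7a-5p carried the family. let-7c-5p was the most read member and let-7a-5p the next in all 24 libraries, and together they made up 79.4% to 85.2% of the family's reads. With let-7f-5p and let-7b-5p the share was 92.7% to 95.6%. miR-98-5p was the least read in all 24. By mean level, let-7c-5p ranked 2 of all miRNAs at W10, behind miR-16-5p at 11.6% of the reads. It ranked 1 at P18, 2 at Lac7 and 3 at Inv3, where miR-143-3p took 14.6%, 13.9% and 24.6% of the reads. The lead at P18 was narrow, at a mean of 14.9%, and let-7c-5p was the most read miRNA in 3 of the 6 P18 libraries. Members of equal length were compared here, but how well the library chemistry takes up each sequence was not tested.

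The level of let-7c-5p, lowest, median and highest mouse, was 81195, 95877 and 121139 RPM at W10 and 129438, 146575 and 173046 RPM at P18. At Lac7 it was 99247, 111642 and 139372 RPM, and at Inv3 75927, 87591 and 96432 RPM. The order was Inv3, W10, Lac7 and P18. Neighbours in this order overlapped, while P18 lay wholly above W10 and Inv3, and Inv3 wholly below Lac7.

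let-7a-5p was at 40755, 50913 and 62991 RPM at W10, 67214, 78295 and 88267 at P18, 68567, 81617 and 98346 at Lac7, and 46343, 57534 and 63587 at Inv3. The mice fell into a low pair of stages, W10 and Inv3, and a high pair, P18 and Lac7, with no overlap between them. Within each pair the mice overlapped.

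let-7i-5p had the widest fold span of stage means among the members, from 2405 RPM at W10 to 7089 RPM at Lac7. It was at 2061, 2247 and 3404 RPM at W10, 4263, 4682 and 4846 at P18, 6792, 6993 and 7602 at Lac7, and 2596, 4243 and 5642 at Inv3. W10, P18 and Lac7 were separate from each other, and the scattered Inv3 mice overlapped W10 and P18.

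let-7f-5p was also highest at Lac7, where its 6 mice lay above all others. Its values were 11697, 12525 and 13501 RPM at W10, 13489, 13961 and 15454 at P18, 16663, 18591 and 19141 at Lac7, and 9803, 11594 and 13155 at Inv3. let-7d-5p was at 1208, 1893 and 2113 RPM at W10, 1980, 2347 and 2643 at P18, 2304, 2797 and 3063 at Lac7, and 1453, 1837 and 2109 at Inv3. Lac7 was separate from W10 and Inv3 but not from P18. let-7e-5p was at 2594, 3079 and 3938 RPM at W10, 3431, 4211 and 4763 at P18, 4314, 4557 and 5525 at Lac7, and 2828, 3915 and 4501 at Inv3. Only Lac7 and W10 did not overlap for let-7e-5p.

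miR-98-5p, with 338 to 598 reads per stage, was highest at P18. It was at 34.5, 54.6 and 76.6 RPM at W10, 78.8, 104 and 116 at P18, 62.9, 93.6 and 108 at Lac7, and 40, 55.7 and 77.8 at Inv3. P18 lay above W10 and Inv3, and Lac7 overlapped every stage.

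let-7b-5p and let-7g-5p had the narrowest fold span of stage means, and their mice overlapped between all stages. let-7b-5p was at 10312, 11511 and 18218 RPM at W10, 11042, 13505 and 16177 at P18, 11097, 12369 and 15822 at Lac7, and 8265, 9970 and 13008 at Inv3. let-7g-5p was at 1551, 2001 and 2547 RPM at W10, 1500, 1894 and 2197 at P18, 1801, 2244 and 2341 at Lac7, and 1440, 1647 and 1911 at Inv3. Inv3 had the lowest mean of the 4 stages for both.

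**Figure D2:**
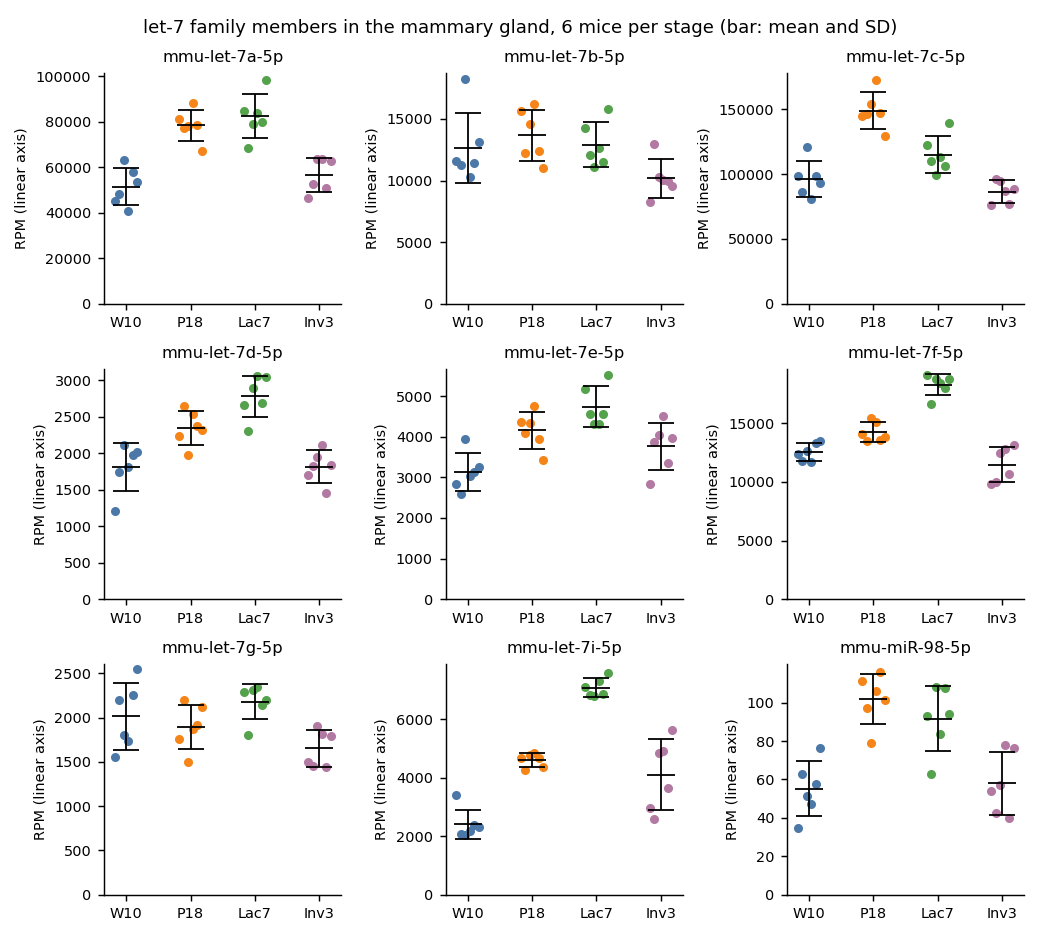
Level of each member in RPM (y axis, linear from 0, own scale per panel) at the 4 stages (x axis), with a point for each of the 6 mice and bars for the mean and SD. let-7i-5p rises in separate steps from W10 to Lac7, let-7c-5p and miR-98-5p peak at P18, and let-7b-5p and let-7g-5p overlap throughout.

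The family rose in late pregnancy. For P18 against W10, 6 of the 9 members were called higher (limma on log2(RPM + 1), adjusted p under 0.05) against 12.1% of all tested miRNAs. None was lower by limma, adjusted or unadjusted, nor by edgeR or DESeq2 on recovered reads, while 29.4% of all tested miRNAs were called lower. The log2 fold changes ± SE were 0.96 ± 0.15 for let-7i-5p (adjusted p = 7.0e-06), 0.90 ± 0.20 for miR-98-5p (adjusted p = 0.00046), 0.63 ± 0.11 for let-7c-5p (adjusted p = 1.9e-05) and 0.62 ± 0.11 for let-7a-5p (adjusted p = 6.3e-05). Those of let-7e-5p (0.41 ± 0.12) and let-7d-5p (0.39 ± 0.12) also passed, at adjusted p = 0.0054 and 0.012. let-7f-5p (0.18 ± 0.09), let-7b-5p (0.12 ± 0.13) and let-7g-5p (−0.08 ± 0.12) did not, and the value of let-7g-5p was 0.17 with size factors. The groups did not overlap for 4 members, let-7a-5p, let-7c-5p, let-7i-5p and miR-98-5p, against 26.7% of all tested. No member was both called and at least 2-fold apart in RPM, against 27.6% of all tested, and with size factors, edgeR or DESeq2 2 members were. The median of the members was 0.41, which is 0.73 above the median of all tested and 0.78 above it with size factors, where 8 members were called. In reads, let-7c-5p supplied 61.1% and let-7a-5p 31.4% of the gain of the family.

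From pregnancy to lactation the members parted. For Lac7 against P18, let-7i-5p (0.62 ± 0.15, adjusted p = 0.0011) and let-7f-5p (0.36 ± 0.09, adjusted p = 0.0016) rose, and let-7c-5p fell by 0.38 ± 0.11 (adjusted p = 0.0043, limma). That made 2 of 9 called higher against 13.8% of all tested, and 1 lower against 31.4%. With size factors the split was 6 higher and none lower, and let-7c-5p was at −0.07 (adjusted p = 0.65). Scaled by the reads outside the family it was at −0.42 (adjusted p = 0.0064), and on recovered reads at −0.21 with edgeR and −0.07 with DESeq2, where neither tool called it or any other member lower. The call of let-7c-5p thus depended on the scaling. The other 6 members lay between −0.16 (miR-98-5p) and 0.24 (let-7d-5p) in RPM, and those of miR-98-5p and let-7b-5p (−0.08) turned to 0.14 and 0.22 with size factors. The groups did not overlap for 2 members, let-7f-5p and let-7i-5p (29% of all tested). No member was called at 2-fold in RPM, with size factors, by edgeR or by DESeq2 (30.1% of all tested in RPM). The members' median was 0.19, 0.53 above that of all tested and 0.63 above it with size factors.

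The make-up of the family within a library does not depend on the scaling, and it changed at the same step. let-7c-5p held 53.9% to 56.4% of the family's reads at P18 and 44.2% to 49.4% at Lac7, without overlap. The ratio of let-7c-5p to let-7a-5p was 1.78 to 1.97 at P18 and 1.25 to 1.60 at Lac7, also without overlap, and 1.71 to 2.19 at W10. let-7i-5p held 1.58% to 1.87% at P18 and 2.61% to 3.07% at Lac7. These shares were chosen after their values were seen and are given without a test. The share and ratio of let-7c-5p also rest on how reads were divided between members 1 base apart, such as let-7a-5p, which was not tested.

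All members fell at involution. For Inv3 against Lac7, 9 of 9 were called lower, against 18.9% of all tested, and none higher by limma (adjusted or unadjusted), edgeR or DESeq2, against 27.9%. let-7i-5p fell by 0.84 ± 0.15 (adjusted p = 4.2e-05), let-7f-5p by 0.68 ± 0.09 (adjusted p = 4.9e-07) and let-7d-5p by 0.62 ± 0.12 (adjusted p = 0.00018). The fall was 0.54 ± 0.11 for let-7a-5p (adjusted p = 0.00026) and 0.41 ± 0.11 for let-7c-5p (adjusted p = 0.0023). miR-98-5p fell by 0.68 ± 0.20 (adjusted p = 0.0065) and let-7g-5p by 0.40 ± 0.12 (adjusted p = 0.0096). let-7b-5p (−0.35 ± 0.13, adjusted p = 0.035) and let-7e-5p (−0.34 ± 0.12, adjusted p = 0.018) had the smallest differences. Their calls were the least firm. That of let-7b-5p was lost with no filter on low values (adjusted p = 0.0667) and with a replicate block (0.0602). It was also lost, at adjusted p of 0.0509 to 0.0994, without Lac7 mouse 1 or 6 or without Inv3 mouse 1, 4, 5 or 6, and that of let-7e-5p without Inv3 mouse 1 (adjusted p = 0.0614). The groups did not overlap for 5 members, let-7a-5p, let-7c-5p, let-7d-5p, let-7f-5p and let-7i-5p (24.8% of all tested), and no member was called at 2-fold in RPM, by edgeR or by DESeq2 (26.8% of all tested in RPM), with 1 at 2-fold with size factors. The members' median was −0.54, 0.83 below that of all tested and 0.90 below it with size factors.

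Against the adult gland, the lactating gland held more of most members, while at involution let-7i-5p alone passed the test. For Lac7 against W10, 7 of 9 were called higher by limma (18.2% of all tested), none lower by limma (adjusted or unadjusted), edgeR or DESeq2 (48.5%), and 5 did not overlap (41.7%). let-7i-5p was the member called at 2-fold or more (50.2% of all tested), at 1.58 ± 0.15 (adjusted p = 4.8e-10). miR-98-5p followed at 0.74 ± 0.20 (adjusted p = 0.0019) and let-7a-5p at 0.69 ± 0.11 (adjusted p = 7.3e-06). let-7d-5p was at 0.63 ± 0.12, let-7e-5p at 0.60 ± 0.12 and let-7f-5p at 0.54 ± 0.09, and let-7b-5p (0.04 ± 0.13) and let-7g-5p (0.13 ± 0.12) were not called. The call of let-7c-5p (0.26 ± 0.11, adjusted p = 0.034) was lost, at adjusted p of 0.0573 to 0.102, without W10 mouse 2, 4 or 7 or Lac7 mouse 1 or 6. It was also lost with no filter (adjusted p = 0.0731) and with the replicate block (0.0982). The members' median was 0.60, 1.27 above that of all tested, and with size factors, edgeR and DESeq2 all 9 were called higher, 6 of them at 2-fold or more. For Inv3 against W10, let-7i-5p alone passed (0.74 ± 0.15, adjusted p = 0.00030), 1 higher against 7.9% of all tested. None was lower by limma, with 2 at an unadjusted p under 0.05 and none by edgeR or DESeq2, against 31.2%. The groups overlapped for all 9 (15.1% of all tested did not), and no member was called at 2-fold in RPM (25%), against let-7i-5p alone with size factors, edgeR and DESeq2. Single libraries moved this comparison: let-7e-5p was also called higher without W10 mouse 3 or Inv3 mouse 1, let-7b-5p lower without W10 mouse 4 or Inv3 mouse 2, and let-7g-5p lower without W10 mouse 1. The scale mattered too, since with size factors 4 members were called higher and the other 5 were not called, and let-7b-5p, let-7c-5p, let-7f-5p and let-7g-5p, below 0 in RPM, were above 0. edgeR and DESeq2 called 5 higher. The members' median was 0.02 in RPM, 0.43 above that of all tested and 0.495 above it with size factors.

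**Figure D3:**
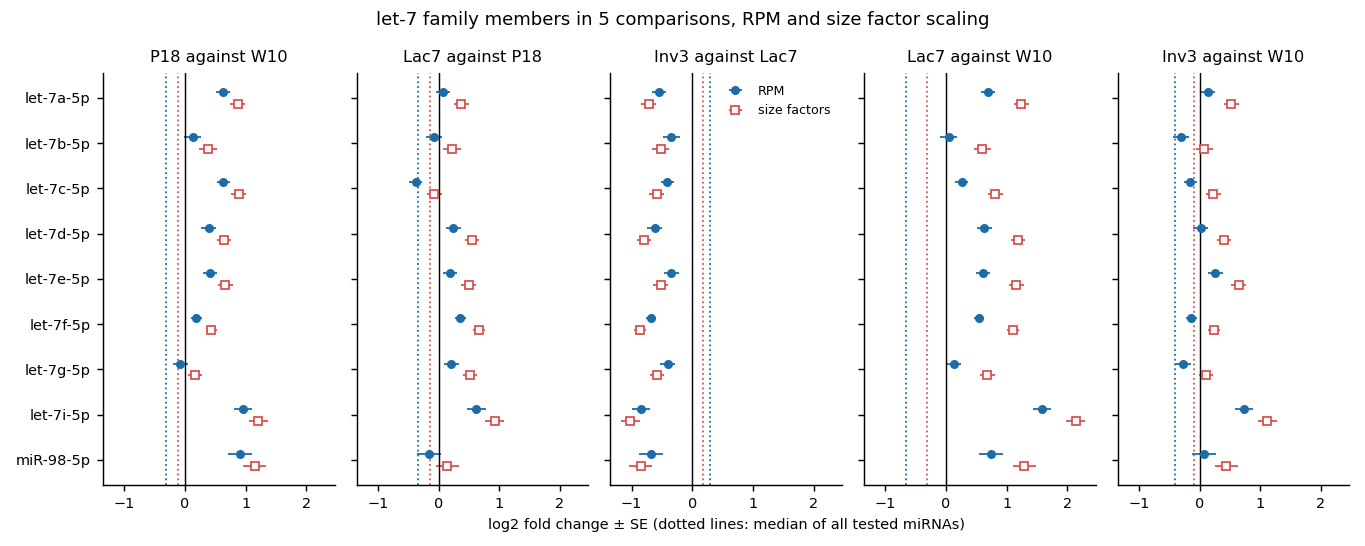
Log2 fold change ± SE (x axis) of each member (y axis) in the 5 comparisons, in RPM (filled circles) and with size factors (open squares). Dotted lines mark the median of all 544 miRNAs tested on each scale; the size factor values lie to the right of the RPM values except for Inv3 against Lac7, where all 9 members are below 0 on both scales.

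Lists of cell type markers were summed at the same stages, and the markers of some lists did not all move alike. The 6 epithelial miRNAs listed (miR-205-5p, miR-429-3p, miR-141-3p and the 3 of the miR-200 family named a, b and c) summed to 15083 to 21387 RPM in the W10 mice and 49216 to 64031 RPM in the P18 mice. The sums were 113795 to 133198 RPM in lactation and 24194 to 78695 RPM in involution, and no marker of any list was at 0 at a stage. Of the epithelial miRNAs, 5 were called higher and none lower by limma for P18 against W10 (12.1% and 29.4% of all tested). For Lac7 against P18, 4 were higher and 1 lower (13.8% and 31.4%). For Lac7 against W10, 5 were higher and 1 lower (18.2% and 48.5%). For Inv3 against Lac7, 1 was higher and 5 lower (27.9% and 18.9%). For Inv3 against W10, all 6 were higher and none lower (7.9% and 31.2%). The 6 mesenchymal miRNAs summed to 147092 to 171333 RPM at Lac7 and 257041 to 350093 at Inv3, where all 6 rose (27.9% of all tested). They summed to 170091 to 212055 RPM at W10 and 191202 to 215025 at P18. For P18 against W10, 1 was called higher and 4 lower (12.1% and 29.4% of all tested). For Inv3 against W10, 2 were called higher and 4 lower (7.9% and 31.2% of all tested). The 4 skeletal muscle miRNAs summed to 2378 to 24031 RPM at W10 and 215 to 947 at Inv3. The 2 lymphocyte miRNAs fell from 869 to 1689 RPM at W10 to 37.5 to 201 at Lac7, the 3 myeloid and leukocyte miRNAs from 24721 to 47268 to 3939 to 11992. All 5 of these were called lower (48.5% of all tested). At Inv3 the former summed to 238 to 673 RPM and the latter to 12884 to 23540 RPM. The 2 adipocyte miRNAs summed to 420 to 866 RPM at W10 and 65.2 to 119 RPM at Lac7, with 1 of them called lower (48.5% of all tested). Over all 24 libraries the 2 endothelial miRNAs summed to 12532 to 19549 RPM and the 3 of red blood cells to 371 to 1953 RPM. From W10 to Inv3 the stage means were 15816, 15608, 18466 and 15594 RPM for the former and 1149, 607, 956 and 801 RPM for the latter. The part of these cell types in the let-7 values was not tested.

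Several genomic partners of the members went the other way. The let-7 genes often sit beside genes of the miR-99, miR-100 and miR-125 families, and transcripts of such clusters are known to yield several miRNAs. Mirlet7e lies 95 bases from Mir99b and 368 from Mir125a, and Mirlet7c-1 657 bases from Mir99a and 46.5 kb from Mir125b-2. Mirlet7a-2 is 5.21 kb from Mir100 and 45.1 kb from Mir125b-1, and each pair is on the same strand. miR-125b-5p thus has a gene near each of Mirlet7a-2 and Mirlet7c-1, and its values are not split between them. The sequences of the partners of let-7e-5p, whose 3 genes are closest, and of the other arm of the let-7d hairpin share no seed with the family (bases 2 to 8 in capitals).
mmu-miR-99b-5p: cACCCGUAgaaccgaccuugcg
mmu-miR-125a-5p: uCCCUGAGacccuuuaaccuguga
mmu-let-7d-3p: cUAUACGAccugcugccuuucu

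Of the 11 neighbour miRNAs listed, 10 were tested, and for P18 against W10 none was called higher and 6 lower (12.1% and 29.4% of all tested). For Inv3 against Lac7 8 were called higher and 1 lower (27.9% and 18.9% of all tested, limma). With size factors none was higher and 6 lower in the former, and 6 were higher and 1 lower in the latter. miR-125a-5p was at 9769, 12595 and 20141 RPM at W10, 3490, 5391 and 7269 at P18, 4562, 5411 and 6378 at Lac7, and 5898, 7539 and 13952 at Inv3. The P18 and Lac7 mice lay below all W10 mice, a difference of −1.25 ± 0.20 for P18 (adjusted p = 7.6e-06), while let-7e-5p from the same cluster had risen. miR-99b-5p, the third of this cluster, was at 167, 202 and 287 RPM at W10 and 60.9, 112 and 139 at P18, −1.08 ± 0.19 (adjusted p = 3.9e-05). Within a library the ratio of let-7e-5p to miR-125a-5p was 0.196 to 0.332 in the W10 mice and 0.601 to 0.983 in the P18 mice, then 0.677 to 1.07 (Lac7) and 0.277 to 0.753 (Inv3). It was higher in every P18 and Lac7 mouse than in any W10 mouse, and such a ratio does not depend on the scaling. It does depend on how reads were divided between let-7e-5p and let-7a-5p, 1 base apart, which was not tested. From W10 to P18 the mean of let-7e-5p went from 3130 to 4155 RPM and that of let-7a-5p from 51404.5 to 78386.7 RPM. The ratios were chosen after the values were seen.

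The other neighbours named lie beside Mirlet7a-2 or Mirlet7c-1, each 1 of the 2 genes of let-7a-5p and let-7c-5p. The values of these 2 members sum over both genes, so a contrast with a neighbour cannot be read as a difference within 1 cluster. miR-99a-5p was at 694, 1022 and 2190 RPM at W10, 152, 247 and 386 at P18, 89.9, 97.4 and 130 at Lac7 and 255, 375 and 752 at Inv3. Its difference was −2.25 ± 0.28 for P18 against W10 (adjusted p = 3.0e-07) and 1.93 ± 0.28 for Inv3 against Lac7 (adjusted p = 2.8e-06). miR-125b-5p was at 17031, 21286 and 33699 RPM at W10, 6823, 10538 and 13047 at P18, 2734, 3044 and 3562 at Lac7, and 6558, 9847 and 21609 at Inv3. W10, P18 and Lac7 did not overlap for miR-99a-5p or miR-125b-5p. miR-125b-5p fell by 1.12 ± 0.22 for P18 against W10 and by 1.73 ± 0.22 for Lac7 against P18 (adjusted p = 0.00014 and 2.9e-07). miR-100-5p was at 75.2, 116 and 195 RPM at W10 and 12.01, 13.5 and 21.4 at Lac7, where 62 reads in all 6 libraries stood behind it, and rose by 1.72 ± 0.28 at Inv3 (adjusted p = 1.1e-05). These directions were the same with size factors, and miR-125a-5p for Inv3 against Lac7 (0.54 ± 0.20, adjusted p = 0.025) was the call of these 5 neighbours in the same 2 comparisons that size factors ended, at 0.36 (adjusted p = 0.157).

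The opposite arms of the let-7 hairpins were rare. Processing of a hairpin leaves a 5p and a 3p strand, of which 1 is usually kept. Of 14 other arms and relatives listed, 13 were in the table and 12 were tested, and for P18 against W10 none was called higher and 3 lower, a share near the 29.4% of all tested, and with size factors 1 was higher and 1 lower. For Inv3 against Lac7 3 were called higher and none lower (27.9% and 18.9% of all tested, limma), and with size factors 3 higher and 1 lower. Of these, let-7d-3p and let-7i-3p reached a mean of 100 RPM at a stage. let-7d-3p was at 100, 113 and 159 RPM at W10, 12.8, 18.5 and 35.6 at P18, 10.6, 15.0 and 20.1 at Lac7, and 28.6, 53.6 and 174 at Inv3. W10 lay above P18 and Lac7 without overlap (P18 against W10 −2.49 ± 0.30, adjusted p = 1.6e-07), and Inv3 above Lac7 (1.92 ± 0.30, adjusted p = 6.1e-06). The ratio of let-7d-5p to let-7d-3p was 12.04 to 19.0 in the W10 mice and 65.1 to 160 in the P18 mice, then 115 to 288 (Lac7) and 10.6 to 50.8 (Inv3). At Lac7, 64 reads in all 6 libraries stood behind the 3p arm, so single ratios there carry a large counting error.

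let-7i-3p did not follow that course. It was at 56.0, 110 and 149 RPM at W10, 38.4, 78.9 and 129 at P18, 131, 154 and 169 at Lac7, and 79.2, 161 and 169 at Inv3. Lac7 lay above P18 (0.96 ± 0.26, adjusted p = 0.0033), and Inv3 against Lac7 was −0.19 ± 0.26 (adjusted p = 0.57). The ratio of let-7i-5p to let-7i-3p overlapped between all pairs of stages except Lac7 and Inv3, at 41.6 to 58.2 and 18.3 to 36.4.

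**Figure D4:**
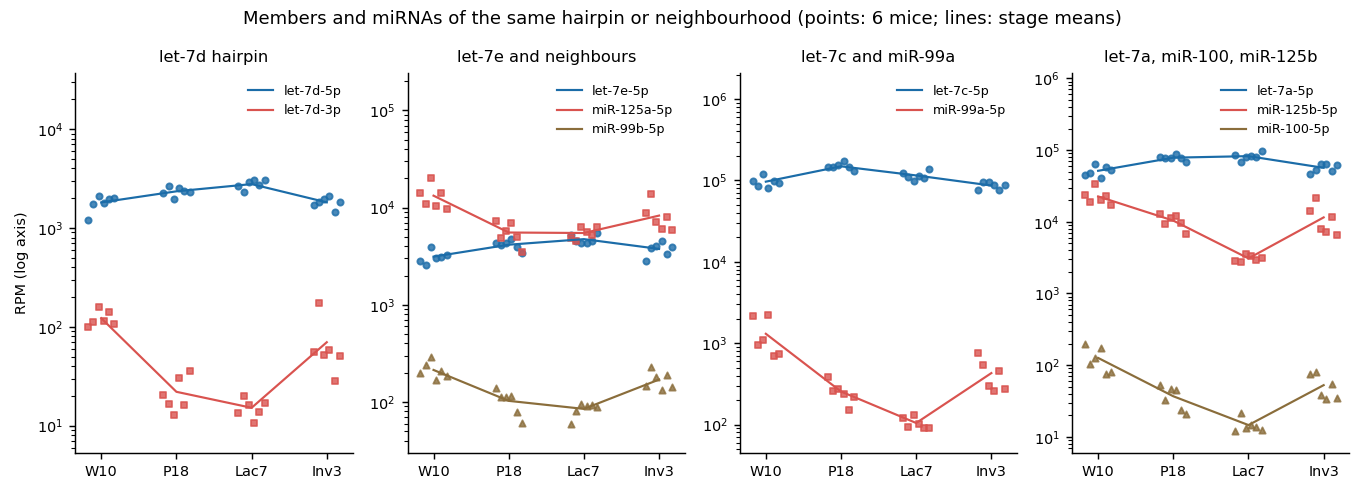
RPM (y axis, log scale) at the 4 stages (x axis) of let-7d-5p beside let-7d-3p, let-7e-5p beside miR-125a-5p and miR-99b-5p, let-7c-5p beside miR-99a-5p, and let-7a-5p beside miR-125b-5p and miR-100-5p. Points are the 6 mice and lines join stage means. The members (circles) are higher at P18 than at W10, where the mean of miR-99a-5p goes from 1303 to 254 RPM and that of let-7d-3p from 122 to 22.01 RPM.

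The miRNAs outside the family nearest to its course were then sought. Likeness to the summed level was measured as the root-mean-square difference of log2(RPM + 1) over the 24 libraries after centring, among 150 other miRNAs that averaged 100 RPM or more. The nearest was miR-28a-3p (0.18), followed by miR-542-3p (0.22) and miR-26b-5p (0.25), against a median of 0.75 over the candidates. miR-28a-3p had stage means of 118, 173, 163 and 119 RPM from W10 to Inv3 and miR-542-3p 301, 493, 382 and 254 RPM. miR-26b-5p, at 2692, 2667, 2685 and 2150 RPM, did not share the higher level at P18 in RPM. Its log2 fold change from W10 there was −0.01 (adjusted p = 0.92, limma). Size factors (0.24, adjusted p = 0.042), edgeR (0.29) and DESeq2 (0.24) called it higher. At Inv3 it was called lower than at W10 in RPM (−0.33, adjusted p = 0.0035, limma). That call was lost with size factors (0.05, adjusted p = 0.75), edgeR (0.08) and DESeq2 (0.05). Among the members the root-mean-square difference was 0.11 for let-7c-5p, 0.12 for let-7a-5p, 0.33 for miR-98-5p and 0.49 for let-7i-5p. Thus let-7i-5p was the member least like the sum, to which let-7c-5p and let-7a-5p give most of the reads.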

How the data were processed

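Small RNA in mammary glands of 24 mice was measured. The deposited values are RPM, made by the authors, who assigned reads with QuickMIRSeq to miRBase 22; the submitters' processing notes also name Trimmomatic 0.36, cutadapt and GRCm38. Whether mismatches were allowed or molecular identifiers counted is not given in the sources used here. Whole reads were recovered for 100% of values (tolerance 0.1 of a step). Days follow the sample labels and the methods, since the series' design text swaps those of lactation and involution and names inguinal glands only. Libraries within a stage differed by more than sampling noise (smallest chi-square per degree of freedom 9.63).

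miRNAs averaging 1 RPM or more at a stage (544, all 9 members among them) were fitted with limma 3.58.1 (R 4.3.3) on log2(RPM + 1) over 24 libraries. Calls used a Benjamini-Hochberg adjusted two-sided p under 0.05 and no limit on fold, which is understated at low values by the pseudocount of 1. Other settings tried were a pseudocount of 0.1 or 10, a filter at 100 RPM or none, DESeq2 size factors, scaling by reads outside the family, 12 libraries only, a replicate block, edgeR 4.0.16 and DESeq2 1.42.0 on recovered reads, and each library left out. The calling was also run on simulated reads with changes balanced in sign and larger than those of the members in RPM. That run does not show how the calling does on smaller changes or under a shift of the median.

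The members and lists were chosen with earlier results of these data known. Named were all members, listed arms of at least 100 RPM, 5 listed neighbours, the other miRNAs with the seed, the 3 nearest patterns, the most read miRNA outside the family and the miR-30 family. Hairpin positions are from RefSeq and host genes from GENCODE (GRCm38). Python 3.11.15, numpy 2.4.6, pandas 2.3.3 and matplotlib 3.10.9 were used.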

Additional observations from a re-analysis of the deposited data

Results flagged for a closer look

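Of 40 groups of 6 mice (9 members and their sum at 4 stages), 3 held a mouse far from the other 5 by Dixon's gap ratio, where chance gives about 1 in 20. let-7b-5p was at 18218 RPM in W10 mouse 3, with the others at 10312 to 13111 RPM. let-7i-5p was at 3404 RPM in W10 mouse 1, with the others at 2061 to 2386 RPM. let-7g-5p was at 1801 RPM in Lac7 mouse 2, with the others at 2140 to 2341 RPM.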

How the results depend on the processing

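Calls that needed at least 2-fold left 0 members for P18 against W10, 0 higher and 0 lower for Lac7 against P18, 0 for Inv3 against Lac7, 1 for Lac7 against W10 and 0 for Inv3 against W10. Members higher for Lac7 against P18 were 6 with size factors, 5 with edgeR and 6 with DESeq2, and members lower 0, 0 and 0. For Inv3 against W10, 4, 5 and 5 were higher. Leaving out a library gave 1 to 2 higher and 0 to 1 lower for Inv3 against W10. It gave 7 to 9 lower for Inv3 against Lac7 and 6 to 7 higher for Lac7 against W10. With the replicate block, and likewise with no filter, 8 were lower for Inv3 against Lac7 and 6 higher for Lac7 against W10. Same-numbered mice did not deviate together on average (mean correlation −0.05 over 33 pairs against 0.004 over 183 others). The former ranged from −0.83 to 0.642 and the latter from −0.862 to 0.812. With such a spread this cannot settle whether the numbers pair the mice.

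The summed level with size factors was 0.81 for P18 against W10, 0.18 for Lac7 against P18, −0.66 for Inv3 against Lac7, 0.99 for Lac7 against W10 and 0.32 for Inv3 against W10, against 0.56, −0.13, −0.48, 0.43 and −0.05 in RPM.

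Some uncalled differences changed sign. Values are for size factors, edgeR and DESeq2 in turn. For Lac7 against P18, let-7b-5p was 0.22, 0.0735 and 0.22 and miR-98-5p 0.14, 0.0063 and 0.15. For P18 against W10, let-7g-5p was 0.17, 0.21 and 0.16, and 0.0799 when scaled outside the family. For Inv3 against W10, let-7b-5p was 0.0776, 0.0910 and 0.0653, let-7c-5p 0.23, 0.24 and 0.21, let-7f-5p 0.24, 0.28 and 0.25, let-7g-5p 0.11, 0.13 and 0.0903, and miR-99b-5p 0.0470, 0.0777 and 0.0555. edgeR and DESeq2 called that of let-7f-5p higher (adjusted p = 0.0424 and 0.0170). miR-99b-5p for Lac7 against P18 was 0.0629 with size factors and 0.0229 with DESeq2, and miR-125a-5p −0.0312 when scaled outside the family. Leaving out a library gave −0.112 to 0.0995 for miR-125a-5p there. It gave −0.0175 to 0.154 for let-7b-5p for Lac7 against W10, and for Inv3 against W10 −0.0971 to 0.0779 for let-7d-5p and −0.0573 to 0.168 for miR-98-5p.

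The cause of these changes was not tested beyond the change of scale itself. Over all tested miRNAs, the share of calls that were higher for P18 against W10 was 29.2% in RPM and 43.5% with size factors, 30.5% and 44.3% for Lac7 against P18, 27.3% and 39.1% for Lac7 against W10, and 20.2% and 43.8% for Inv3 against W10. Depth limits the values with few reads, such as miR-98-5p (338 to 598 reads per stage), and let-7d-3p (64) and miR-100-5p (62) at Lac7.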
